A study of Mus musculus with 27 samples.

Results

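A set of 10 genes of the 2-cell-like state that lie outside the Zscan4 cluster was followed across the RNA-seq libraries. They were Tdpoz1, Tdpoz2, Tdpoz3, Tdpoz4, Zfp352, Usp17l5, BC080695, Gm13119, B020004J07Rik and Sp110, taken as the rows of the deposited count tables that carry these symbols, 10 of 27080 genes listed in all. J1 mESCs, a mouse ESC line, carried a non-targeting shRNA (shNT, 3 libraries), shGas41-1 (3 libraries) or shGas41-2 (2 libraries), and cells with the control shRNA were sampled as ESCs (EB day 0, 2 libraries) and as embryoid bodies (EB day 6, 2 libraries). All cells therefore carried a lentiviral shRNA, and the knockdown cells were harvested 8 days after infection. The study's methods state for all of its experiments that biological repeats were made, while the labels do not say which libraries came from separate cultures, and p-values measure the spread between these libraries.

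Cultures of mESCs hold a small and changing fraction of cells that resemble the 2-cell embryo. These cells transcribe the Zscan4 genes, endogenous retroviruses of the MERVL family and a set of genes otherwise read at the onset of zygotic transcription, and the homeobox factor Dux is a known activator of the program. TD-POZ proteins pair a TRAF domain with a POZ domain, as the ubiquitin ligase adaptor Spop does. PRAME-like genes (BC080695, Gm13119 and B020004J07Rik) encode leucine-rich repeat proteins and lie in large tandem clusters. Usp17l5 belongs to a family of deubiquitinating enzymes, Zfp352 encodes a zinc finger protein, and Sp110 encodes a nuclear body protein related to Sp100. In bulk RNA, a different number of 2-cell-like cells and a different amount of RNA per cell cannot be told apart.

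The libraries held 59224537 to 81524773 counts, so that 3 counts, taken as the floor, corresponded to 0.0368 to 0.0507 CPM, which divides each count by the total of its library. Such floors cover counting error only. Yeats4, which encodes Gas41, stood at 52.1 to 63.2 CPM in shNT, at 3.50 to 4.79 CPM with shGas41-1 and at 7.68 to 8.68 CPM with shGas41-2. Its log2 fold change was -3.66 ± 0.19 (SE) and -2.71 ± 0.14 in edgeR (adjusted p = 0.000375 and 0.000934). The shRNAs are shown because each defines a knockdown arm, and both sequences were found within Yeats4 on chromosome 10 of mm9, on the minus strand.
shGas41-1: gtagcattccacgacgttaag
shGas41-2: atcgttaagccaatcgtttat
The target of shGas41-1 lay at chr10:116652513-116652533 in the 3′ UTR, and that of shGas41-2 at chr10:116659320-116659340 in a coding exon. Summed levels of 10 pluripotency markers were 7013 to 7575 CPM in shNT, 6256 to 7228 CPM with shGas41-1 and 6926 to 7098 CPM with shGas41-2, and fell to 2238 to 2448 CPM at EB day 6. Of these, Klf4 and Esrrb were called lower with shGas41-1 (log2 fold change -1.13 and -1.04, edgeR adjusted p = 0.00554 and 0.0204) and 0 of 10 with shGas41-2 in edgeR, where 3 had an unadjusted p under 0.05. Of 9 day 6 EB markers tested, Fgf5 and Gata6 were called higher and Eomes lower with shGas41-1 (edgeR, adjusted p = 0.0389, 0.0188 and 0.0343) and 0 with shGas41-2 in edgeR, where 2 had an unadjusted p under 0.05. Mean levels of Fgf5 and Gata6 were 0.117 and 0.201 CPM in shNT, 0.466 and 0.646 CPM with shGas41-1 and 200.1 and 40.1 CPM at EB day 6. Eomes had means of 9.05 CPM in shNT and 4.31 CPM with shGas41-1. The 10 listed markers summed to 10.8 to 15.1 CPM in shNT, 6.98 to 13.4 CPM with shGas41-1 and 10.1 CPM with shGas41-2. Markers of oocytes summed to 1.70 to 2.37 CPM over 11 listed genes in all knockdown and shNT libraries, with Zp2 at 0 in every shNT library. Figla, an oocyte transcription factor of that list, was called higher with shGas41-1 (log2 fold change 2.42, edgeR adjusted p = 0.0155) and had 2.04 with shGas41-2 (adjusted p = 0.0773). Its mean was 0.0447 CPM in shNT, within the range of the floors, and 0.234 and 0.179 CPM with the shRNAs. It was the 1 gene called of 3 oocyte markers tested, and Gdf9 and Zp3 had 0.25 and -0.50 with shGas41-1. Markers of germ cells summed to 62.0 to 74.6 CPM in shNT, 111.2 to 135.0 CPM with shGas41-1 and 101.8 to 118.3 CPM with shGas41-2, with 4 and 3 of 8 genes called higher. The part of these marker genes in the results below was not tested.

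TD-POZ genes lie within a single stretch of chromosome 3 (mm9), at chr3:93455493-93456585 for Tdpoz2 (minus strand, annotated as a pseudogene), chr3:93474184-93475418 for Tdpoz1 (minus), chr3:93600320-93601432 for Tdpoz4 (plus) and chr3:93629942-93631039 for Tdpoz3 (plus). Their coding parts are close copies. Aligned end to end, the coding sequences were identical at 87.6% of positions between Tdpoz1 and Tdpoz3, 77.7% between Tdpoz3 and Tdpoz4 and 76.9% between Tdpoz1 and Tdpoz4. The first 90 coding bases of Tdpoz3 (chr3:93629942-93630031) and Tdpoz4 (chr3:93600320-93600409) are shown, with the 18 positions that differ in capitals, as an example of how these copies differ.
Tdpoz3: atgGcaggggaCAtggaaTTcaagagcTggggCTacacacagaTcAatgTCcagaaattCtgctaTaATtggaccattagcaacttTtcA
Tdpoz4: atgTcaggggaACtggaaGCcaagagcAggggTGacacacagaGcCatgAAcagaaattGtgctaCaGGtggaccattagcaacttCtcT

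Tdpoz4 had the largest fitted rise of the 10 genes with shGas41-1. It stood at 0.169, 0.0721 and 0 CPM in shNT 1, 2 and 3, at 2.12, 1.70 and 1.53 CPM with shGas41-1 and at 1.23 and 0.499 CPM with shGas41-2. Every knockdown library was above every shNT library, and the 2 shGas41-2 libraries were below all 3 with shGas41-1. The log2 fold change was 4.59 ± 0.61 (SE) with shGas41-1 (edgeR, adjusted p = 0.00306) and 3.55 ± 0.79 with shGas41-2 (adjusted p = 0.0322), and the ratio of mean CPM was 22.2 and 10.7. Tdpoz3 stood at 0.371, 0.101 and 0.0829 CPM in shNT, at 1.86, 1.37 and 1.76 CPM with shGas41-1 and at 1.63 and 0.661 CPM with shGas41-2. Its groups did not overlap either, and its log2 fold change was 3.28 ± 0.49 and 2.75 ± 0.62 (edgeR, adjusted p = 0.00399 and 0.0344).

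The other TD-POZ genes were at the limit of detection. Tdpoz1 had 4, 0 and 0 counts in shNT, 24, 11 and 7 counts with shGas41-1 and 16 and 1 counts with shGas41-2. The shGas41-1 libraries were above all shNT libraries in CPM, whereas the range with shGas41-2 overlapped that of shNT. Tdpoz2 had 2 counts in each shNT library, 7, 5 and 1 counts with shGas41-1 and 7 and 7 counts with shGas41-2, and only the shGas41-2 libraries were above all of shNT. Neither gene passed the count filter in the comparison of either shRNA with shNT, so neither was tested there.

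Of the PRAME-like genes, B020004J07Rik had the highest mean CPM of the 10 in every group. B020004J07Rik (chr4:101507574-101516628, minus) stood at 2.75, 1.36 and 1.02 CPM in shNT, at 12.3, 9.34 and 10.8 CPM with shGas41-1 and at 9.52 and 5.43 CPM with shGas41-2. All 5 knockdown libraries were above the highest shNT library. The log2 fold change was 2.75 ± 0.35 (SE) and 2.22 ± 0.40 (edgeR, adjusted p = 0.00295 and 0.0160). Gm13119 (chr4:143947845-143954322, plus) stood at 1.50, 0.202 and 0.249 CPM in shNT, at 9.85, 5.35 and 8.54 CPM with shGas41-1 and at 8.10 and 3.18 CPM with shGas41-2. The lowest knockdown library was above the highest shNT library, and the log2 fold change was 3.72 ± 0.66 and 3.23 ± 0.75 (edgeR, adjusted p = 0.00776 and 0.0362). BC080695 (chr4:143157378-143163701, plus) stood at 1.32, 0.317 and 0.318 CPM in shNT, at 6.79, 4.18 and 6.04 CPM with shGas41-1 and at 5.59 and 1.77 CPM with shGas41-2. Its groups did not overlap, and its log2 fold change was 3.23 ± 0.52 and 2.60 ± 0.66 (edgeR, adjusted p = 0.00527 and 0.0479).

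Sp110, Usp17l5 and Zfp352 have no other gene of their family among the 10. Sp110 (chr1:87473474-87495392, minus) stood at 1.15, 0.346 and 0.318 CPM in shNT, at 4.11, 3.26 and 3.77 CPM with shGas41-1 and at 3.86 and 2.05 CPM with shGas41-2. It rose with both shRNAs without overlap, by 2.72 ± 0.45 (SE) and 2.39 ± 0.53 on the log2 scale (edgeR, adjusted p = 0.00593 and 0.0320). Usp17l5 (chr7:110563586-110568394, plus) stood at 2.38, 0.678 and 0.359 CPM in shNT, at 7.68, 5.73 and 4.70 CPM with shGas41-1 and at 5.73 and 2.78 CPM with shGas41-2. The groups did not overlap, and the log2 fold change was 2.49 ± 0.57 with shGas41-1 (edgeR, adjusted p = 0.0194) and 2.00 ± 0.65 with shGas41-2, where it missed the threshold (adjusted p = 0.0916). Zfp352 (chr4:89885511-89892393, plus) stood at 0.507, 0.389 and 0.276 CPM in shNT, at 1.22, 0.728 and 1.11 CPM with shGas41-1 and at 0.908 and 0.387 CPM with shGas41-2. It had the smallest change of the 8 genes tested, with a log2 fold change of 1.47 ± 0.33 with shGas41-1 (edgeR, adjusted p = 0.0185) and of 0.81 ± 0.43 with shGas41-2 (adjusted p = 0.264), where shGas41-2 2 lay within the shNT range.

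**Figure D1:**
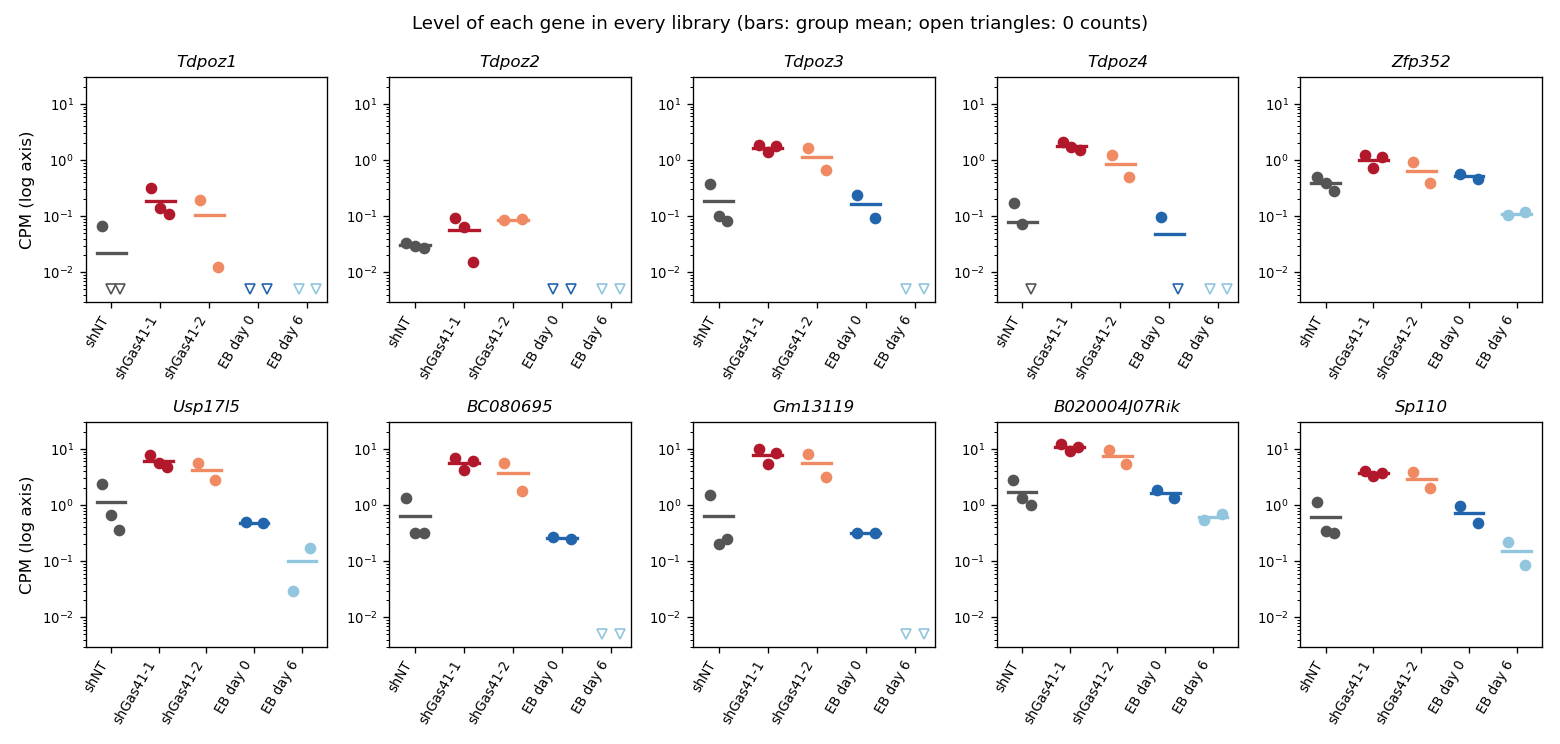
Level of each of the 10 genes in every library (CPM, log axis), by group, with the group mean as a bar and libraries with 0 counts as open triangles at the foot of the axis. In all panels shNT 1 is the highest shNT library, and BC080695, Gm13119, Tdpoz3 and Tdpoz4 have 0 counts in both EB day 6 libraries.

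Over the 10 genes, 8 passed the count filter with shGas41-1 and all 8 of these were called higher (log2 fold change of 1 or more, adjusted p of 0.05 or less in edgeR), where 7.90% of 18274 genes tested were called higher. With shGas41-2, 8 passed and 6 were called higher, where 3.96% of 18405 were. The same 6 genes, Tdpoz3, Tdpoz4, BC080695, Gm13119, B020004J07Rik and Sp110, were called higher with each shRNA, and 3.55% of the 18049 genes tested with both were. Genes such as Tdpoz4 passed the filter through their knockdown libraries, so the share of tested genes that were called carries the filter in it. The 10 genes were also chosen with earlier results of these data known. Shares over all genes, here and below, therefore give scale and are no test of the set. All libraries with shGas41-1 were above all shNT libraries for 9 of the 10 genes (18.1% of genes tested) and all with shGas41-2 for 8 of the 10 (18.2%). Over all 10 genes, filter or not, the median log2 fold change was 2.95 with shGas41-1 and 2.35 with shGas41-2, against 0.02 and -0.01 over all genes tested. Both comparisons used the same shNT libraries and are not independent of each other.

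Within the shNT and knockdown groups the same library was the highest for nearly all of the 10 genes, while the order of the others varied. At EB day 0, library 2 was the higher for 8 genes, and at EB day 6 library 2 was for 1 gene and library 3 for 3. shNT 1 was the highest shNT library in CPM for 10 of 10 genes, whereas it was the highest for 40.3% of expressed genes. For Tdpoz2, with 2 counts in each shNT library, that place came from the smaller total of shNT 1 alone. shGas41-1 1 was the highest of its group for 10 of 10 (28.9% of expressed genes), and shGas41-2 1 was above shGas41-2 2 for 9 of 10 (56.9%). Summed over the 10 genes, the level was 10.2, 3.49 and 2.65 CPM in shNT, 46.3, 31.9 and 38.4 CPM with shGas41-1 and 36.8 and 16.9 CPM with shGas41-2. Zscan4 genes and Dux, which are not among the 10, summed to 430.8, 78.8 and 51.6 CPM in shNT, to 1176, 683.2 and 1115 CPM with shGas41-1 and to 931.7 and 381.4 CPM with shGas41-2. Thus shGas41-2 2 was below shNT 1 for the summed Zscan4 genes and above it for the summed 10 genes. Of the Zscan4 cluster and Dux, 5 of 7 genes tested were called higher with shGas41-1 and 0 of 7 with shGas41-2 in edgeR, where 5 had an unadjusted p under 0.05.

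**Figure D2:**
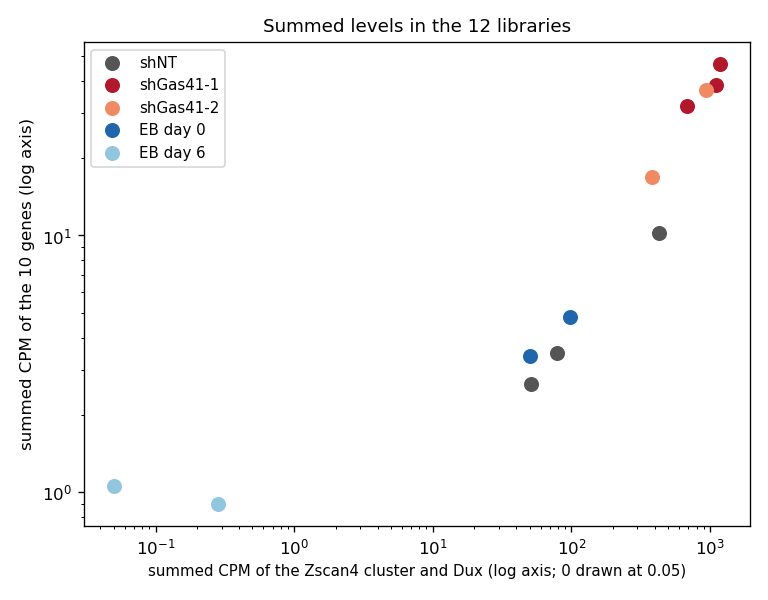
Summed CPM of the 10 genes against summed CPM of the Zscan4 cluster and Dux in each of the 12 libraries, on log axes, coloured by group. The libraries of shNT span 2.65 to 10.2 CPM on the vertical axis, the knockdown libraries 16.9 to 46.3 CPM and the EB day 6 libraries 0.903 to 1.06 CPM.

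Leaving out single libraries changed the calls for shGas41-2 more than for shGas41-1. With shGas41-1, between 6 and 9 of the 10 genes were called higher, where 4.81% to 8.03% of genes tested were. Usp17l5 and Zfp352 lost their call without shGas41-1 1 or without shNT 2, and Zfp352 also without shNT 3. Without shNT 1, the library with the highest levels in its group, 9 genes were called with shGas41-1 and 7 with shGas41-2. Calls over all genes in this setting were 8.03% and 6.41% of genes tested. The fold changes of 6 genes then rose by more than 1.5 times with each shRNA, on the log2 scale to 5.20 and 4.71 for Gm13119, 5.65 and 4.62 for Tdpoz4, 4.23 and 3.70 for Tdpoz3, 4.23 and 3.60 for BC080695, 3.61 and 3.12 for Usp17l5 and 3.55 and 3.23 for Sp110. Without shNT 3, Tdpoz4 fell to 3.96 and 2.93. Without shGas41-2 1, the values with shGas41-2 were 2.77 for Tdpoz4, 2.42 for Gm13119, 1.96 for Tdpoz3, 1.56 for BC080695, 1.40 for Usp17l5 and 0.09 for Zfp352, and without shGas41-2 2, BC080695 stood at 3.19. With shGas41-2, 0 genes were called without shGas41-2 1, 1 gene (B020004J07Rik) without shGas41-2 2, 0 genes without shNT 2 and 3 genes without shNT 3. At an unadjusted p under 0.05 in edgeR, 5, 9, 7 and 7 genes passed in these settings. Calls over all genes fell with them, to 1.59%, 1.42%, 2.15% and 3.25% of genes tested.

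**Figure D3:**
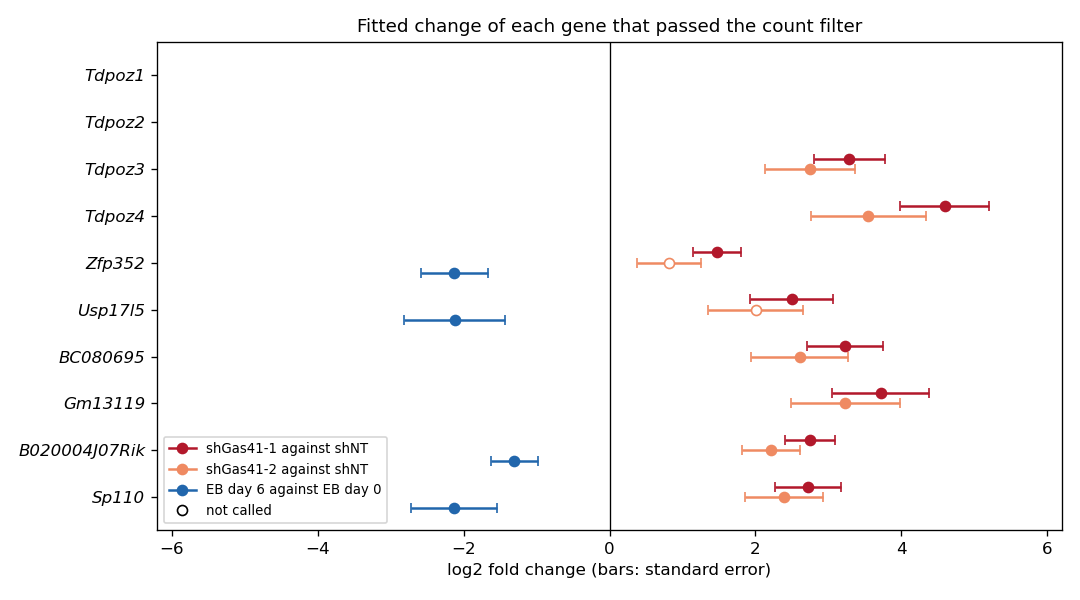
Fitted log2 fold change with its standard error for each of the 10 genes that passed the count filter, with shGas41-1 and shGas41-2 against shNT and at EB day 6 against EB day 0, filled where called. Values with shGas41-2 lie to the left of those with shGas41-1 for all 8 genes, and Tdpoz1, Tdpoz2 and comparisons with 0 counts in EB day 6 are not drawn.

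The shRNAs were compared with each other to see whether the 10 genes responded to a different extent. In the fit over 8 libraries, 9 of the 10 genes passed the filter, and 0 were called different in edgeR, as were 0 of all 19146 genes tested (0%). At an unadjusted p under 0.05, 0 of the 10 passed in edgeR and 1 in DESeq2, and over all genes 1348 passed in edgeR. The largest difference was that of Tdpoz4, which was higher with shGas41-1 by 1.05 ± 0.54 (SE) on the log2 scale, with a 95% interval of -0.15 to 2.25 and an adjusted p of 0.773. For Sp110, the smallest difference, it was 0.34 ± 0.45, with an interval of -0.68 to 1.36 (edgeR, adjusted p = 0.938). Of the 10 genes, 9 had a higher fitted level with shGas41-1, and Tdpoz2, which was not tested, had a lower one. These intervals leave room for differences of more than 2-fold for every gene tested.

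Embryoid body differentiation went with lower levels of these genes. All 6 genes that passed the filter were called lower at EB day 6 than at EB day 0, where 14.7% of 18287 genes tested were called lower. B020004J07Rik stood at 1.89 and 1.33 CPM at EB day 0 and at 0.547 and 0.684 CPM at EB day 6, a log2 fold change of -1.30 ± 0.32 (SE; edgeR, adjusted p = 0.0134). It was the gene that fell least, and its highest EB day 6 library was below its lowest EB day 0 library. Zfp352 stood at 0.574 and 0.455 CPM at EB day 0 and at 0.104 and 0.116 CPM at EB day 6 (log2 fold change -2.13 ± 0.46, edgeR adjusted p = 0.00750). Sp110 stood at 0.953 and 0.486 CPM and then at 0.222 and 0.0873 CPM (-2.13 ± 0.59, edgeR adjusted p = 0.0201). Both differences were larger than the spread between the libraries of each day. Usp17l5 stood at 0.490 and 0.471 CPM at EB day 0 and at 0.0296 and 0.175 CPM at EB day 6, that is, at 2 and 12 counts (-2.12 ± 0.69, edgeR adjusted p = 0.0353). Without EB day 6 library 2, Usp17l5 moved to -1.35 and lost its call and Sp110 moved to -2.92, and without EB day 6 library 3, Usp17l5 moved to -3.86.

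Counts were 0 in both EB day 6 libraries for 4 of the listed genes. Gm13119 stood at 0.322 and 0.314 CPM at EB day 0, so it was at least 7.23-fold lower at EB day 6 when set against the floor of 3 counts per library. BC080695 stood at 0.266 and 0.251 CPM and was at least 5.88-fold lower. Both were called lower in edgeR (adjusted p = 0.00256 and 0.00356). Tdpoz3 had 17 and 6 counts at EB day 0, at least 3.78-fold above the floor, and Tdpoz4 had 7 and 0 counts, and neither passed the filter. Tdpoz1 and Tdpoz2 were not listed in the table of this comparison. Both EB day 6 libraries were below both EB day 0 libraries for 7 of the 8 listed genes, where 45.4% of genes tested were. With the genes at 0 set to their bound, the median log2 fold change over the 8 listed genes was -2.12, against -0.003 over all genes tested. Without EB day 0 library 2, the log2 fold changes of Zfp352, Usp17l5, B020004J07Rik and Sp110 were -1.96, -2.10, -1.04 and -1.58. Without EB day 0 library 3, they were -2.28, -2.15, -1.52 and -2.52. These genes lost their calls in both fits, each of which kept a single library at EB day 0. BC080695 and Gm13119 lost theirs only without EB day 0 library 3. In the ESC libraries of the EB comparison, the summed level of the 10 genes was 4.83 and 3.41 CPM, within the range of shNT, although those libraries came from another table and were not tested against shNT.

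Levels per length of exon ordered the genes differently from CPM. With shGas41-1, B020004J07Rik was the highest at 5.30 ± 0.73 CPM per kb of exon (SD, n = 3), followed by Gm13119 at 3.78 ± 1.10, BC080695 at 2.71 ± 0.64 and Usp17l5 at 2.46 ± 0.62. Gm13119 and BC080695, and likewise BC080695 and Usp17l5, differed by less than the larger SD of the pair. Tdpoz4 (1.60 ± 0.27) and Tdpoz3 (1.52 ± 0.24) came next and differed from each other by less than their SD. Sp110, whose annotated exons cover 6680 bases, stood at 0.556 ± 0.064 CPM per kb, Zfp352 at 0.439 ± 0.112, Tdpoz1 at 0.153 ± 0.092 and Tdpoz2 at 0.0526 ± 0.0359. In shNT, B020004J07Rik was the highest as well, at 0.837 ± 0.450 CPM per kb.

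Most of these genes share sequence with copies elsewhere in the genome, which bears on what their counts hold. Every 50-base window of their exons was looked up in mm9 on both strands. For B020004J07Rik and Zfp352, 86.7% and 90.9% of windows occurred at a single place. The share was 58.8% for Tdpoz4, 56.2% for Gm13119, 51.8% for Usp17l5, 49.5% for Tdpoz2, 44.2% for BC080695, 42.1% for Tdpoz1, 33.8% for Tdpoz3 and 25.7% for Sp110. Of the windows of Sp110, 74.1% also occurred where no exon is annotated, and 28.0% in the pseudogene Gm16026. Gm9125 and Gm9117, which share 56.8% of the windows of Tdpoz1 and are identical to each other over all 1239 exon bases, had equal values in 12 of 12 libraries, of which 7 were above 0. Reads that map to both copies were thus counted at each of them, and part of the counts of the 10 genes may be reads of their copies.

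Copies of these genes were called in part, and several had levels near those of the genes they resemble. Gm9125 and Gm9117 were not called with either shRNA (edgeR, adjusted p = 0.0731 and 0.286). Gm13040, Gm13043, Gm13057, Gm13109 and Dub2a were called higher with shGas41-1 and not with shGas41-2, with adjusted p values of 0.0699 to 0.115. Gm4982, which shares 66.2% of the windows of Tdpoz3, had a log2 fold change of 3.13 with shGas41-1 and 2.55 with shGas41-2 (edgeR, adjusted p = 0.00298 and 0.0310). Gm13040, Gm13043 and Gm13057, each sharing 52.2% of the windows of BC080695, had mean levels of 5.03, 5.09 and 5.08 CPM with shGas41-1, against 5.67 CPM for BC080695. Dub2a, with 41.1% of the windows of Usp17l5, had a mean of 4.28 CPM against 6.04 CPM. Gm16026 rose by 3.38 and 3.00 on the log2 scale (edgeR, adjusted p = 0.00493 and 0.0251), against 2.72 and 2.39 for Sp110. B020004J07Rik and Zfp352 are the genes whose values rest least on shared sequence, and no annotated exon of another gene overlapped those of any of the 10.

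**Figure D4:**
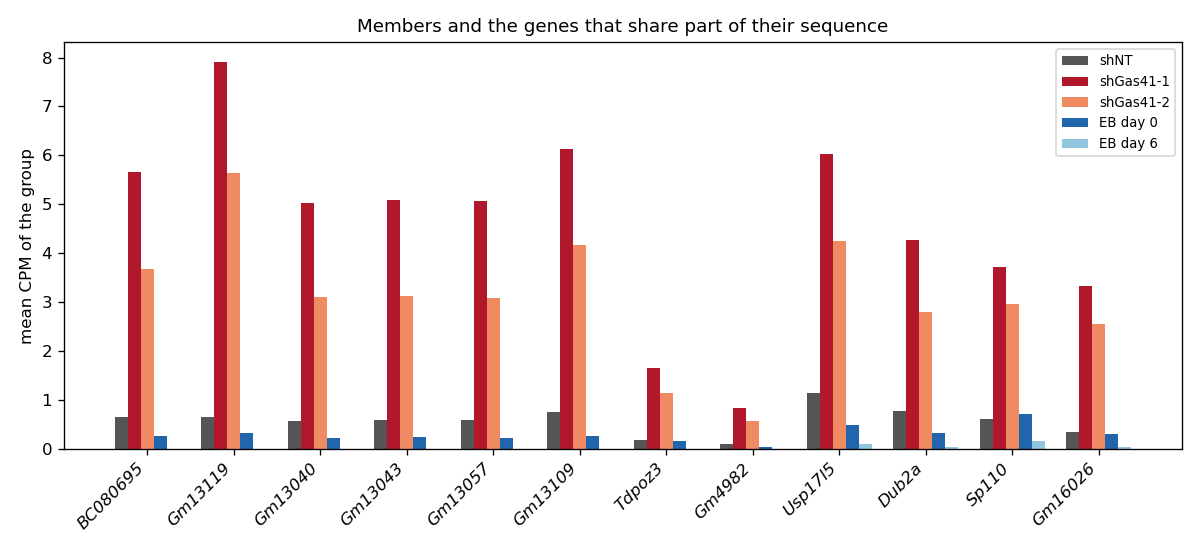
Mean CPM of each group, as bars, for BC080695, Gm13119, Tdpoz3, Usp17l5 and Sp110 and for genes that share a part of their exon sequence (no error bars are drawn). In every gene shown the bars of shGas41-1 and shGas41-2 stand above that of shNT, with 5.67 CPM for BC080695 and 5.03 CPM for Gm13040 with shGas41-1.

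Relatives outside the 10 genes were examined by family, in lists also chosen with earlier results of these data known. Over all genes tested, 7.90% were called higher with shGas41-1 and 3.96% with shGas41-2. Gm13040, Gm13043, Gm13057, Gm13109, Gm13101 and Dub2a share 21% or more of the windows of BC080695, Gm13119 or Usp17l5. Part of their counts may therefore be the same reads. Of the TD-POZ and SPOP family, 3 of 7 genes tested were called higher with shGas41-1 and 1 of 6 with shGas41-2, and 0 were called lower. Gm4858 rose by 3.35 ± 0.61 (SE) and 3.01 ± 0.69 on the log2 scale (edgeR, adjusted p = 0.00816 and 0.0359), whereas Gm10696 was called with shGas41-1 alone (2.91 ± 0.62, adjusted p = 0.0147), with 2.14 ± 0.67 for shGas41-2 (adjusted p = 0.0819). Of 21 PRAME-like and oogenesin genes tested, 13 were called higher with shGas41-1 and 8 with shGas41-2, and E330014E10Rik rose by 3.72 ± 0.65 and 3.40 ± 0.79 (edgeR, adjusted p = 0.00740 and 0.0368). Pramel6 and Pramel7, of the same family, rose by 2.85 and 3.37 with shGas41-1 and by 3.05 and 2.41 with shGas41-2. All 3 USP17 genes tested, Dub1, Dub1a and Dub2a, were called higher with shGas41-1 (log2 fold changes 2.80, 3.24 and 2.58) and 0 of 3 with shGas41-2 in edgeR (adjusted p = 0.0684, 0.0934 and 0.115), although all 3 had an unadjusted p under 0.05.

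The other lists varied in how many of their genes were called. Of 3 relatives of Zfp352 tested, 0 were called with either shRNA in edgeR (0 and 1 at an unadjusted p under 0.05), and their median log2 fold change was -0.07 and 0.03. Of the SP100 family and interferon response genes, 3 of 19 tested were called higher and 1 lower with shGas41-1, and 2 of 17 higher with shGas41-2. The genes called higher with both were C130026I21Rik (3.24 ± 0.35 and 2.68 ± 0.38) and A530032D15Rik (2.25 ± 0.47 and 1.97 ± 0.50), both related to Sp110 and Sp140. Ifit3, an interferon-induced gene, was lower with shGas41-1 by -2.25 ± 0.65 (edgeR, adjusted p = 0.0432). Of other genes known from the 2-cell-like state, 15 of 17 were called higher with shGas41-1 and 3 of 17 with shGas41-2, which were Arg2, Pramel6 and Pramel7. This list overlaps those above, since Dub1, Dub1a, Pramel6, Pramel7 and Gm12794 are also counted among the USP17 or PRAME-like genes. At EB day 6, 8 of 12 PRAME-like genes, 3 of 3 USP17 genes and 10 of 13 other 2-cell-like genes were called lower. Over all genes tested, 14.7% were. Of the Zfp352 relatives, 2 of 3 were called lower, Zfp42 and Zfp353 (log2 fold change -4.87 and -4.34). Of the TD-POZ and SPOP family 0 of 2 were called in edgeR, although both had an unadjusted p under 0.05, and of 22 SP100 family and interferon genes 9 were called higher and 8 lower.

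Neighbouring genes within 250 kb were counted at each locus, and the loci were not tested against each other. Around B020004J07Rik, 5 of 10 neighbours tested were higher with shGas41-1, among them Lepr, the leptin receptor (log2 fold change 1.76, edgeR adjusted p = 0.00525), and Gm12790 (2.99, adjusted p = 0.00326), and Dnajc6 was lower (-1.31, adjusted p = 0.00504). Around Sp110, 2 of 9 were higher, Sp140 and Gm10552, around BC080695 3 of 10, around Gm13119 3 of 8 and around Usp17l5 1 of 4, where 7.90% of all genes tested were. Those around BC080695 were its copies Gm13040, Gm13043 and Gm13057, each sharing 52.2% of its windows. The annotated spans of these copies overlap each other, so they are not separate loci. The neighbour of Usp17l5 was Dub2a, which shares 41.1% of its windows. Part of the counts of these neighbours may therefore be the same reads as those of BC080695 and Usp17l5. Near the TD-POZ genes, 4 of 7 were higher, which were 2 TD-POZ copies (Gm5852 and Gm9116), S100a11 and Tchh. Gm5852 and Gm9116 are identical at 1070 of 1074 exon bases. Gm9117 and Gm9125, tested there and not called, are identical at all 1239. Each pair may hold the same reads, so its genes are not separate in these counts. With shGas41-2, the counts were 3 of 9 around B020004J07Rik, 2 of 8 around Gm13119, 1 of 8 around Sp110, 1 of 5 near the TD-POZ genes, 0 of 10 around BC080695 and 0 of 3 around Usp17l5 in edgeR (4 and 1 at an unadjusted p under 0.05), where 3.96% of all genes tested were called higher. None of the neighbours of Zfp352 passed the count filter.

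Promoters of these genes were read from RefSeq (GRCm38.p6), 250 bases before to 50 after each start, and located in mm9 by exact match. Entries were found for Tdpoz1, Tdpoz4, Zfp352, Gm13119, B020004J07Rik and Sp110, the last with 2 starts. The core of the Dux motif, GATTNAATC on either strand, occurred in 0.268% of 32851 promoters and in those of B020004J07Rik and Gm13119. The core of the interferon-stimulated response element, GAAANNGAA on either strand, occurred in 8.56% of promoters and, of the 10 genes, in Gm13119 alone. The longest stretch that promoters of 4 of the genes share on either strand was CACACCTTTAATCC, a search made after the promoters had been read. It occurred in 41 of 32851 promoters, those of Sp110, B020004J07Rik, Tdpoz1 and Zfp352 included. The same promoters also held ATATAAG, found in 2.52% of all promoters. It was not among the motifs set beforehand. In Sp110 and B020004J07Rik it lies within a single shared stretch of 61 bases, so these 2 matches are not separate. The stretches upstream of the start are shown because they hold what these genes of unlike families share, with both elements in capitals.
Sp110: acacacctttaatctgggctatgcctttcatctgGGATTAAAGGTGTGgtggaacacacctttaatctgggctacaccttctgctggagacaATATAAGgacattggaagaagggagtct
B020004J07Rik: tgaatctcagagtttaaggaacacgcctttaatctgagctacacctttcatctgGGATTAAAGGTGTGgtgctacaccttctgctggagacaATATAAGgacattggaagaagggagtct
Zfp352: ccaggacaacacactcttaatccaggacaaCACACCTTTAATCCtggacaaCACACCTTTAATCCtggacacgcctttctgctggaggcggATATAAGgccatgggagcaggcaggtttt
Tdpoz1: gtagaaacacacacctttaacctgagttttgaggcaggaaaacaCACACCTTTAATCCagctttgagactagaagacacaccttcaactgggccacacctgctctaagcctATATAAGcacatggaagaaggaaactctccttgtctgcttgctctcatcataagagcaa
These stretches end at the base before the start and lie in mm9 at chr1:87500467-87500586 (Sp110, minus strand), chr4:101516628-101516747 (B020004J07Rik, minus), chr4:89885391-89885510 (Zfp352, plus) and chr3:93480206-93480375 (Tdpoz1, minus). Sp110 and B020004J07Rik, on different chromosomes, shared 61 bases without a mismatch. ATATAAG began 28 bases before the start in both and 29 bases before it in Zfp352, but 59 bases before it in Tdpoz1. The promoter of the second Sp110 start held neither element. The first start of Sp110 and the start of Tdpoz1 lay 5074 and 4787 bases upstream of the annotated ends of the genes in mm9, so reads from their first exons may not have been counted.

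The Dux motif core of Gm13119 is shown in capitals in the 150 bases before its start (chr4:143947717-143947866, plus strand).
Gm13119: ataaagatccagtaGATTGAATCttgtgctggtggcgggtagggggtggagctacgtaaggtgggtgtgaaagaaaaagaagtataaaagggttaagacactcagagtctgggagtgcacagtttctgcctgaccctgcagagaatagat
It began 136 bases before the start, and that of B020004J07Rik 123 bases before it. Dux itself stood at a mean of 0.145 CPM in shNT, 0.771 CPM with shGas41-1 and 0.617 CPM with shGas41-2, with a log2 fold change of 2.53 ± 0.71 (SE) and 2.22 ± 0.76 (edgeR, adjusted p = 0.0403 and 0.103). A match is a description of the sequence and not evidence of binding.

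The genes whose profile over the 12 libraries was most like that of the 10 were sought among 19675 expressed genes. The profile was the mean standardised log2(CPM + 0.1) of 9 of the 10 genes, without Tdpoz2, which had too few counts. The highest Pearson correlations were those of Gm5698 (0.997), Gm8994 (0.994), Gm11052 (0.993), Lgals4 (0.992) and Gm11236 (0.992). The libraries fall into groups of high and low level, so these values describe a shared order and carry no test. Of these, Lgals4, which encodes a galectin, rose by 2.88 and 2.21 on the log2 scale with shGas41-1 and shGas41-2 (edgeR, adjusted p = 0.00785 and 0.0416) and fell by 2.47 at EB day 6 (adjusted p = 0.0101). Each of the 9 genes had a correlation with the mean of the other 8 of 0.874 (Tdpoz1) to 0.995 (Tdpoz3).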

How the data were processed

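RNA-seq libraries were prepared by the authors with a TruSeq RNA kit (v2), which does not mark strand. Reads were mapped to mm9 with TopHat2 (2.0.10 in the submitters' processing notes) and counted per gene with htseq-count. The authors' deposited counts are raw integers, and the counter's settings for reads that map to several places are not given in the sources used here. The deposited log2 fold changes, p-values and FDR are the authors' own comparisons and were not used. Libraries were grouped by their labels, with the columns called ESC read as EB day 0, and 0 columns were left unmatched. ChIP-seq samples were not analysed here.

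The 10 genes and the gene lists were chosen with earlier results of these data known, and the named genes of each list are up to 4 with the largest smaller change over both shRNAs. Tables were joined by identifier, with 0 for genes listed in a single knockdown table, since the shNT columns were the same in both. Counts were tested in R 4.3.3 with edgeR 4.0.16 (filterByExpr with a minimum count of 10 and minimum total of 15, TMM, quasi-likelihood test, prior count 0.125, Benjamini-Hochberg adjustment over all genes tested). The standard error is the log2 fold change divided by the root of F. For genes that did not pass the filter, fold changes came from the fit without it. CPM values are counts per library total, computed here. DESeq2 1.42.0 and the other alternatives are given after the report. The fits were tested on simulated counts. Gene positions and exon lengths came from GENCODE M1 (mm9).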

Additional observations from a re-analysis of the deposited data

How the results depend on the processing

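Scaling by RLE or by library size alone, DESeq2, no count filter and the replicate block left the number of the 10 genes called within 1.5 times its value in every comparison. Over single libraries left out, the number ranged from 6 to 9 for shGas41-1 (8 over all libraries), from 0 to 7 for shGas41-2 (6), from 0 to 7 for EB day 6 (6) and from 0 to 0 for shGas41-1 against shGas41-2 (0). Where a group kept 1 library, that library was assumed to vary like the others. Over all genes tested, the share called higher with shGas41-1 ranged from 4.81% to 8.03% in these settings. With 1 shNT library left out, the share with shGas41-2 ranged from 2.15% to 6.41%. When a change above 2-fold was itself tested (glmTreat), 5 genes were called higher with shGas41-1, 0 with shGas41-2 and 3 lower at EB day 6. Over all genes tested, 1.54%, 0.038% and 9.65% were called in these directions. At an unadjusted p under 0.05 in glmTreat, 8, 7 and 5 of the 10 genes passed. Of the values of single genes, 305 kept their side of the threshold under the alternatives, 39 lost it and 9 gained it, and none changed direction with a call. Ranking similar genes by Spearman's rho in place of Pearson's r kept 1 of the 5 named genes. With a prior count of 2, the median log2 fold change over the listed genes was 2.68, 2.26 and -1.91 for shGas41-1, shGas41-2 and EB day 6.

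Libraries share replicate numbers, but the mean correlation of same-numbered deviations was -0.106, 0.340 and 0.0636 in the 3 comparisons with a control and pairing was not established. With the replicate block, 7 genes were called higher with shGas41-1 (Zfp352 lost its call) and 7 with shGas41-2 (Usp17l5 gained one). At EB day 6, 6 were called lower, and 0 were called different between the shRNAs. Over all genes tested, the shares called were 5.58%, 6.1%, 14.5% and 0%. The depth limited Tdpoz1 and Tdpoz2, with at most 24 and 7 counts in a library.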

Other observations

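Genes outside the 10 that carry CACACCTTTAATCC in their RefSeq promoter are few, and most of those tested here were also higher in the knockdown. Promoters were matched to the counts by gene symbol, so genes listed under another name are not among those tested. Of 36 such genes, 7 were tested with shGas41-1 and 5 were called higher (71.4%), where 7.35% of the 10895 tested genes with a RefSeq promoter were. With shGas41-2, 4 of 7 were called higher (57.1%), where 3.76% were. The 5 genes were Gm4340, Gm12724, Gm12790, Gm13102 and Pramel4. Gm12790 had log2 fold changes of 2.99 ± 0.41 (SE) and 2.56 ± 0.45 with the 2 shRNAs (edgeR, adjusted p = 0.00326 and 0.0155), and Gm12724 of 3.03 ± 0.51 and 2.47 ± 0.58 (adjusted p = 0.00618 and 0.0372). The genes tested that were not called higher were Pemt and Sgk1. The stretch was taken from the promoters of the 10 genes after they had been read, some of these genes are relatives of each other, and no test was made.

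The 61 bases shared by Sp110 and B020004J07Rik occurred in 12 promoters of 12 genes. Of the 6 genes tested with shGas41-1, members of the 10 included, 4 were called higher, which were Sp110, B020004J07Rik, Gm12790 and Gm4340, while Arih2 and Sgk1 had log2 fold changes of -0.20 and -0.05. Genes outside the 10 that carry GATTNAATC were called higher in 7 of 24 cases with shGas41-1 (29.2%) and in 2 of 24 with shGas41-2 (8.33%). Those outside the 10 that carry ATATAAG were called higher in 19 of 185 (10.3%) and 11 of 188 (5.85%). ATATAAG was not among the motifs set beforehand, and no test was made.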
